A study of Mus musculus with 7 samples.

Results

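The contacts described here are those of the Olig1-Olig2 region, 1 of 7 mouse genomic regions whose folding was read out by 5C, a form of chromosome conformation capture that uses primer pools (carbon copy). Every fragment pair that carries this region's name in the deposited 5C table was taken, which gave 17024 of the table's 86767 pairs. The pairs join 128 fragments read by forward primers with 133 fragments read by reverse primers, over a span of 1138 kb. Neural progenitor cells (NPCs) derived from V6.5 embryonic stem (ES) cells were compared with undifferentiated V6.5 ES cells. V6.5 is a male line from a cross of 129SvJae and C57BL/6, so both cell types share 1 genetic background and neither carried a mutation or drug treatment in the labels. NPCs were obtained through embryoid bodies without LIF, selection in serum-free ITSFn medium and expansion with Fgf2, while ES cells were grown on feeder cells with LIF and then passaged on gelatin. There were 2 libraries of each cell type. 5C counts no RNA, so neither cell type could be checked against its marker genes, and the cells other than neural progenitors that such a culture can hold were not measured.

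Olig1 and Olig2 are neighbouring genes for basic helix-loop-helix transcription factors of the neural tube. Olig2 specifies motor neuron and oligodendrocyte progenitors, and Olig1 acts in oligodendrocyte maturation. In mammalian nuclei, chromosomes fold into blocks (domains) whose sequences touch each other more often than sequences outside, separated by boundaries, and loops that join the ends of a block are often held by CTCF and cohesin. In 5C, cross-linked chromatin is cut with HindIII, fragments that lie close together in the nucleus are ligated, and primer pairs at the ligation junctions are sequenced, so a read count per fragment pair measures how often that junction was recovered.

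The table gives the distance between the fragments of each pair but no chromosome coordinates. Positions are therefore kb from the lowest-numbered assayed fragment, rebuilt from those distances. The orientation of the region and the place of each gene in it are not known from the table, so no fragment below is tied to Olig1 or Olig2. Neighbouring assayed fragments lay a median of 3.31 kb apart, and the largest gap, of 21.4 kb, ran between 94.9 and 116 kb. Fragments are named by primer (FOR or REV) and number, which follows their order.

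The region held 2320935 and 5738218 reads in NPC replicates 1 and 2, and 1103014 and 542138 reads in ES replicates 1 and 2. The deeper NPC libraries nevertheless had more pairs without a read, 16.3% and 19.7%, against 7.98% and 10.2% in the ES libraries. Log2 counts of the 17024 pairs, which are not independent of each other, correlated at r = 0.826 between the NPC libraries and 0.900 between the ES libraries. Between cell types r ran from 0.682 to 0.805. Replicates differed by more than counting noise, with a chi-square per degree of freedom of 30.5 between the NPC libraries and 7.52 between the ES libraries. All shares of reads given below have 95% Wilson intervals at most 0.225 percentage points wide, which reflect the number of reads and treat PCR copies as separate molecules, so the true error is larger.

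The clearest difference in folding was a block of contacts between about 460 and 740 kb that was denser and more sharply bounded in NPCs than in ES cells. To compare blocks, each count was set against its expectation from the distance and from both fragments of the pair. The residual on a log2 scale was averaged in windows of 60 kb by 60 kb. No read filter was applied, so pairs with few or no reads entered these averages and the squares and boundary contrasts below. FOR193-REV288, without a read in any library, had residuals of 2.47 and 2.92 in NPCs and 1.92 and 1.93 in ES cells. Of 190 windows tested with limma, 12 (6.32%) were higher in NPCs and 9 (4.74%) were lower in NPCs at an adjusted p under 0.05. Over all regions the shares were 2.04% higher and 3.6% lower. Of the 10 windows lying wholly between 480 and 720 kb, 5 were called higher in NPCs, none was called lower and 9 had a positive difference.

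The window joining 480 to 540 kb with 660 to 720 kb, which spans nearly the whole block, averaged 1.57 and 1.51 above expectation in the NPC libraries, against 0.54 and 0.53 in the ES libraries. Its difference was 1.00 ± 0.09 (SE, limma adjusted p = 0.0304), and 92.4% of its 66 pairs had a higher mean residual in NPCs. The window of 540 to 600 kb with 600 to 660 kb, in the middle of the block, stood at 0.52 and 0.70 in NPCs and at −0.30 and −0.30 in ES cells. Contacts in this window were thus above expectation in both NPC libraries and below it in both ES libraries, a difference of 0.91 ± 0.09 (limma adjusted p = 0.0304). The windows of 540 to 600 kb and of 600 to 660 kb with themselves were not called. They were above expectation in ES cells too, at 0.17 and 0.07 and at 0.37 and 0.34. The other called windows inside the block joined 480 to 540 kb with 600 to 660 kb (difference 0.83), 540 to 600 kb with 660 to 720 kb (0.68), and 480 to 540 kb with 540 to 600 kb (0.62). Just across the lower end, 420 to 480 kb with 660 to 720 kb was also higher in NPCs (0.52).

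Some windows that cross the upper end of the block were lower in NPCs. Those joining 480 to 540 kb with 720 to 780 kb and with 840 to 900 kb were not, with a difference of 0.07 each and no call. The window joining 660 to 720 kb with 780 to 840 kb averaged −0.88 and −0.82 in the NPC libraries and −0.22 in each ES library, a difference of −0.63 ± 0.07 (limma adjusted p = 0.0304). The windows joining 600 to 660 kb and 660 to 720 kb with 720 to 780 kb fell by 0.56 and 0.62. Crossing the lower end, the windows joining 300 to 360 kb and 360 to 420 kb with 480 to 540 kb fell by 0.47 and 0.67. Both lower-end differences turned positive, at 0.21 and 0.13 and without a call, when reads were summed per window and tested with edgeR with no correction for distance and fragment. Farther out, the windows joining 540 to 600 kb and 600 to 660 kb with 900 to 960 kb fell by 0.40 and 0.61. Falls were not limited to windows that touch the block, since the median difference of all windows of the region was −0.16. Away from the block and without a call, 180 to 240 kb with 900 to 960 kb had −0.54. In the same way, 240 to 300 kb with 840 to 900 kb had −0.56, while 60 to 120 kb with 1080 to 1140 kb had 0.34.

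Over all 957 pairs inside 460 to 740 kb, a range chosen after its values were seen, the mean residual was 0.64 and 0.66 in NPCs and 0.26 and 0.23 in ES cells. The 3100 pairs from the block to positions beyond 740 kb averaged −0.29 and −0.40 in NPCs and −0.07 and −0.07 in ES cells. No set of pairs at like distances away from the block was averaged beside them. The same pairs inside the block took a smaller part of the region's reads in NPCs, 10.2% and 10.9%, than in ES cells, 14.1% and 12.9%. The density of the block is therefore a statement about counts relative to distance and fragment, not about its share of reads.

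**Figure D1:**
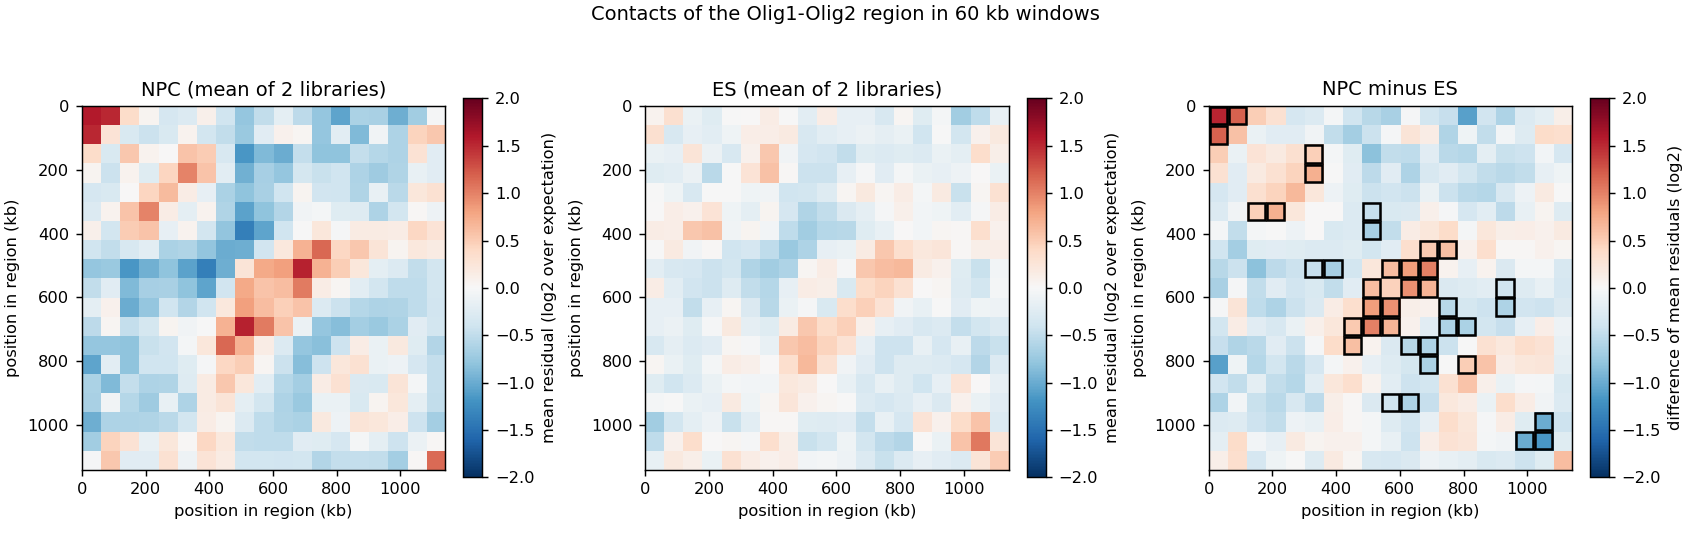
Mean residual (log2 of reads over the expectation from distance and fragments) in 60 kb by 60 kb windows, for the mean of the 2 NPC libraries (left), the mean of the 2 ES libraries (middle) and their difference (right). Both axes are the position in the region in kb, and black outlines mark the 12 windows higher and the 9 windows lower in NPCs by limma. In the left map a red block between about 460 and 740 kb stands out, with its highest window at 480 to 540 kb by 660 to 720 kb.

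Other called windows lay at the ends of the region and around 300 kb. The windows at the low end, 0 to 60 kb with itself and with 60 to 120 kb, were higher in NPCs by 1.52 ± 0.19 and 1.18 ± 0.16 (limma adjusted p = 0.0304 for each), although they held only 9 and 27 pairs. Contacts of 300 to 360 kb with 180 to 240 kb and with 120 to 180 kb were higher in NPCs by 0.72 and 0.47, and the window of 780 to 840 kb with itself by 0.49. At the high end the order was the other way round. The window of 1020 to 1080 kb with itself had residuals of 0.09 and −0.33 in the NPC libraries, against 1.19 and 0.91 in the ES libraries, a difference of −1.17 ± 0.19 (limma adjusted p = 0.0404). Its summed reads were 12964 and 13407 in NPCs and 20939 and 7473 in ES cells (edgeR log2 −1.32 ± 0.37, adjusted p = 0.0115). The neighbouring window of 960 to 1020 kb with 1020 to 1080 kb fell by 0.99 in NPCs, and 10.4% of its 96 pairs had a higher residual in NPCs, but its summed reads did not pass (edgeR log2 −0.20, adjusted p = 0.679).

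All 21 called windows kept their direction when any 1 library was left out, with between 79.6% and 120% of their size. Without ES replicate 1 or ES replicate 2, however, limma called 0 windows, with 17 and 12 windows higher and 19 and 21 lower at an unadjusted p under 0.05, while 37 or 42 higher and 66 or 94 lower were called without NPC replicate 2 or NPC replicate 1. Residuals also spread more widely in the NPC libraries (SD 1.35 and 1.71) than in the ES libraries (0.920 and 0.914). Of the 21 windows, 18 were called with every library scaled to the same spread, and 0 by limma with the authors' ratio or the replicate number as a block, where all kept their direction. At an unadjusted p under 0.05, 17 of the 190 windows were higher and 81 lower in NPCs with the ratio, and 31 and 62 with the block.

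Reads summed per window, tested by edgeR with no correction for distance or fragment, passed in the same direction in 11 of the 21 windows. The block's highest window, 480 to 540 kb with 660 to 720 kb, lost its call there (log2 0.47 ± 0.20, adjusted p = 0.0830). So did 540 to 600 kb with 660 to 720 kb (0.46, edgeR adjusted p = 0.126) and 480 to 540 kb with 540 to 600 kb (0.85, adjusted p = 0.0519). The upper-end windows joining 660 to 720 kb with 780 to 840 kb, and 660 to 720 kb and 600 to 660 kb with 720 to 780 kb, had log2 differences of −0.47, −0.46 and −0.52 with edgeR adjusted p = 0.0730, 0.131 and 0.122.

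The ends of the block were joined by the densest distant contact of the whole region relative to expectation, and it was present in both cell types. The region was divided into squares of 30 kb by 30 kb, and the 620 squares at least 60 kb apart with 8 or more pairs were ranked by mean residual. This ranking was added after the values were seen and carries no test. The square joining 450 to 480 kb with 720 to 750 kb ranked 1 in each of the 4 libraries. Its 32 pairs averaged 2.01 and 2.19 in the NPC libraries, against 1.19 and 1.25 in the ES libraries. In NPCs 28 and 29 of these pairs reached a residual of 1, against 22 and 23 pairs in ES cells. A residual of 1 is a count plus 1 about 2-fold above its expectation, which need not be a 2-fold excess of reads in a pair with few reads. The contact was thus spread over many fragment pairs at these ends in every library, and its mean was higher in both NPC libraries than in both ES libraries. These means and counts were not scaled to equal spread, and residuals had an SD of 1.35 and 1.71 in NPCs against 0.920 and 0.914 in ES cells. The order of the cell types at this square therefore cannot be separated from that wider spread. The next square in NPCs, 480 to 510 kb with 690 to 720 kb, lay just inside the block and averaged 1.90 and 1.98, against 0.97 and 0.79 in ES cells.

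The 60 kb window that contains these ends, 420 to 480 kb with 720 to 780 kb, averaged 1.13 and 1.16 in NPCs and 0.54 and 0.53 in ES cells, a difference of 0.61 ± 0.06 (limma adjusted p = 0.0304). Its summed reads were 19417 and 52770 in NPCs and 8168 and 4953 in ES cells, with a log2 difference of 0.91 ± 0.30 by edgeR (adjusted p = 0.0261). Of its 158 pairs, 21 were called higher in NPCs singly and 3 were called higher in ES cells. The difference shrank to 0.21, with a limma adjusted p = 0.0968, when residuals were scaled to equal spread, so this window's call moves with the wider spread of the NPC residuals.

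The boundaries of the block were compared by a contrast computed every 10 kb, in which the average residual of pairs that cross a position is subtracted from the average of pairs that stay on either side, within 150 kb. A positive contrast marks a boundary, and a negative one marks the inside of a block. Of 84 positions, 38 (45.2%) were stronger boundaries in NPCs by limma and 28 (33.3%) were weaker at an adjusted p under 0.05, where 33.2% and 20.3% of positions did so over all large regions. Neighbouring positions share most of their pairs, so these counts are not of independent sites. The profile had the same peaks and troughs in both replicates, with r = 0.994 between the NPC libraries and 0.981 between the ES libraries over the 84 positions, against 0.710 to 0.747 between cell types.

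NPCs had strong boundaries at 740 and 460 kb, with mean contrasts of 0.82 at each. At 740 kb the contrast was 0.72 and 0.92 in the NPC libraries and 0.18 and 0.15 in the ES libraries, a gain of 0.66 ± 0.07 (limma adjusted p = 1.89e-05). The largest gain among called positions was 20 kb below it, at 720 kb, where the contrast was 0.49 and 0.61 in NPCs and −0.11 and −0.10 in ES cells. That position was thus on the boundary side in both NPC libraries and inside a block in both ES libraries. At 460 kb both cell types had a boundary, the strongest of the ES profile and above the 740 kb one in NPC replicate 1, with 0.84 and 0.80 in NPCs and 0.43 and 0.41 in ES cells. It gained 0.40 ± 0.05 by limma, but the gain was 0.10, with an adjusted p = 0.128, when residuals were scaled to equal spread.

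The deepest point inside the block also differed in place. In NPCs the contrast was lowest at 590 kb, at −0.92 and −0.95, against −0.27 and −0.26 in the ES libraries there, a loss of 0.67 ± 0.05 by limma. In ES cells the lowest contrast lay at 650 kb, at −0.49 and −0.46 in NPCs and −0.53 and −0.55 in ES cells, which did not pass the limma test (difference 0.07 ± 0.05, adjusted p = 0.290). It passed with residuals scaled to equal spread (0.34, limma adjusted p = 1.25e-07) and on the authors' ratio (0.33, adjusted p = 0.0050). The called positions formed runs, stronger in NPCs from 150 to 190, 310 to 500 and 660 to 780 kb, and weaker from 210 to 290, 540 to 630, 820 to 840 and 920 to 970 kb. Without ES replicate 1, 25 positions were called stronger and 15 weaker, and without ES replicate 2, 32 and 9.

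**Figure D2:**
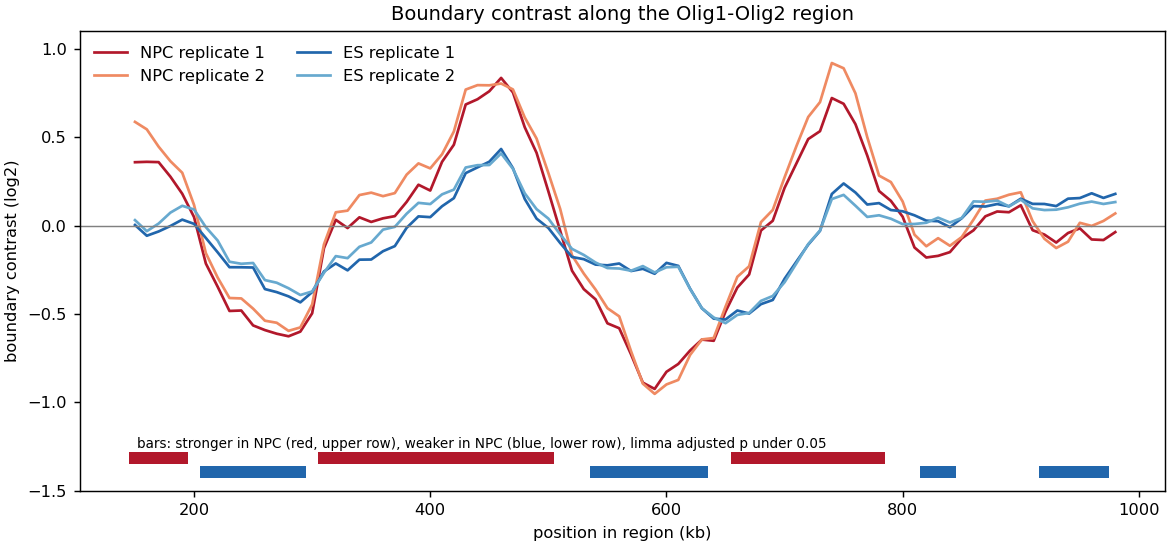
Boundary contrast (log2) every 10 kb along the region, 1 line for each of the 4 libraries, with positions whose contrast differed between cell types by limma marked under the lines. The NPC lines peak near 460 and 740 kb and dip to about −0.9 at 590 kb, and the ES lines peak near 460 kb and stay below 0.25 near 740 kb.

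Single fragment pairs that differed between the cell types were mostly higher in NPCs. Of 9934 pairs with a mean of at least 10 reads, 598 (6.02%) were called as higher in NPCs by edgeR, at a threshold of 0.05 on the adjusted p, and 211 (2.12%) as higher in ES cells, while 7090 pairs fell below the filter. Over all regions 4.9% of tested pairs were called in favour of NPCs and 2.33% in favour of ES cells, so the region lay near the background in both directions. NPC calls were closer in distance, with a median of 127 kb, against 172 kb for ES calls and 219 kb for all tested pairs. Another pair called in the same direction, within 15 kb at both ends and sharing no fragment, existed for 369 of the 598 NPC calls (61.7%) and for 55 of the 211 ES calls (26.1%). No such share was counted over all tested pairs. NPC calls were also more numerous and closer in distance, so these shares are not on equal terms.

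The largest of the NPC contacts named by p was FOR145-REV323, which joins 499 kb at the lower end of the block with 1009 kb. It had 3884 and 9458 reads in the NPC libraries, against 29 and 6 reads in the ES libraries, a log2 difference of 7.51 ± 0.83 (edgeR adjusted p = 0.0225). None of the 15 tested pairs around it that share neither fragment was called, so no patch of called contacts surrounded it. The farthest was FOR349-REV005, across 1063 kb, with 1073 and 1389 reads in NPCs and 23 and 8 reads in ES cells (log2 5.35 ± 0.64). The 4 pairs around it had too few reads to be tested.

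FOR092-REV039 joined 166 kb with 337 kb, with 1573 and 2811 reads in NPCs and 24 and 15 reads in ES cells (log2 5.73 ± 0.59). It differed from the previous contacts in its surroundings, since 6 of 28 tested pairs around it were also called higher in NPCs, and the 60 kb window that holds it was among the called ones. All 6 named NPC pairs contain at least 1 fragment whose summed reads were higher in NPCs by edgeR. The log2 differences of the sums were 2.10 for FOR145 and 2.10 for REV323, 2.21 for FOR092 and 2.16 for REV039, and 2.21 for REV005. With each fragment's shift as an offset, the log2 difference was 4.82 for FOR145-REV323, 4.89 for FOR349-REV005 and 2.93 for FOR092-REV039, each with an edgeR adjusted p = 0.182. FOR238-REV232 had 1.83 with that offset, and FOR121-REV097 and FOR121-REV045 had 0.10 and 0.25, against 5.76 and 5.25 without it.

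In the other direction, FOR289-REV192 joined 630 kb with 920 kb and had 2 and 2 reads in the NPC libraries, against 127 and 57 reads in the ES libraries (log2 −6.41 ± 0.82, edgeR adjusted p = 0.0225). The summed reads of its fragments had log2 differences of 0.23 ± 0.30 for FOR289 and 0.63 ± 0.32 for REV192, both short of the threshold and of the opposite sign. It lies in the called window of 600 to 660 kb with 900 to 960 kb, which was lower in NPCs. FOR175-REV224 joined 575 kb inside the block with 734 kb at its upper end, with 23 and 54 reads in NPCs and 290 and 182 reads in ES cells (log2 −3.74 ± 0.54, adjusted p = 0.0236). Of the 30 tested pairs around it, 1 was called in each direction. The other 4 named ES pairs all contain FOR140.

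In each of these 12 named pairs the scaled NPC and ES values did not overlap, which the rule that picked them favours. Pairs without overlap were not counted among all tested pairs. Without ES replicate 1 edgeR called 69 pairs in favour of NPCs and 1 in favour of ES cells, and without ES replicate 2 it called 9 and 1. Without NPC replicate 1 it called 2692 and 2476, and without NPC replicate 2, 763 and 485. The named ES pairs all lost their call without either ES library, and 3 of the 6 NPC pairs did so without ES replicate 2. The share of calls that were higher in NPCs, 73.9%, was 57.1% with library totals as the scale, 59.7% with a mean of at least 50 reads and 70.5% with scaling factors from this region alone. The median log2 difference of all tested pairs of the table was 0.12 with the main scaling and −0.28 with library totals.

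**Figure D3:**
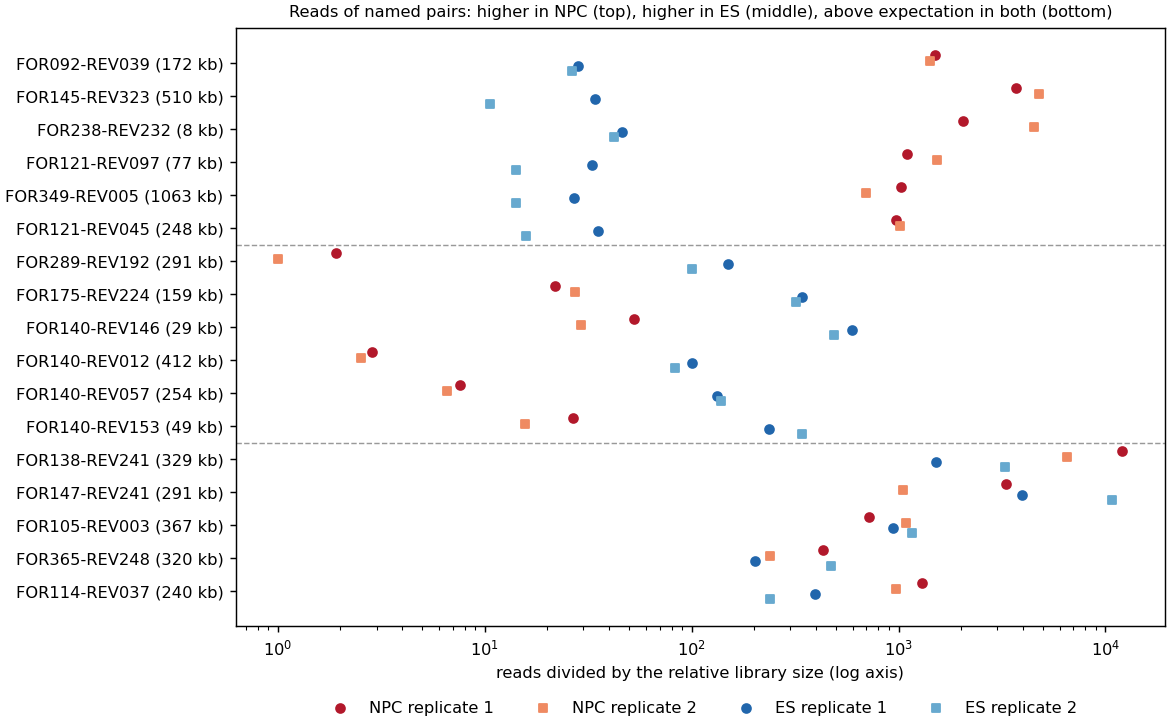
Reads of the 12 named pairs and of 5 pairs above expectation in both cell types, divided by the relative library size, on a log axis, with 1 point for each of the 4 libraries. NPC points (red) lie right of ES points (blue) in the upper group and left of them in the middle group. In the lower group they lie right of them for FOR138-REV241 and FOR114-REV037 and left for FOR147-REV241. They overlap for FOR105-REV003 and FOR365-REV248.

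Called pairs often shared fragments whose summed reads differed between the cell types. Reads summed over all pairs of a fragment differed by edgeR for 133 of the 261 fragments at a threshold of 0.05 on the adjusted p. NPCs had the higher sum in 84 (32.2%) and ES cells in 49 (18.8%). Over all regions the shares were 26.1% and 26.4%. Of the 598 NPC pairs, 595 contained a fragment whose sum was called higher in NPCs, and 181 of the 211 ES pairs contained one called higher in ES cells. The sums include those pairs, so the counts are not independent of each other. How many of all tested pairs contain such a fragment was not counted, so neither count can be set against a background.

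FOR121, at 425 kb, changed most. Its sums were 25255 and 75079 reads in NPCs and 1457 and 431 reads in ES cells, a log2 difference of 4.40 ± 0.37 (edgeR adjusted p = 2.51e-09). The change was of similar size at all distances, with a median log2 difference of 4.31 over its 27 tested pairs within 100 kb, 3.61 over 40 pairs from 100 to 300 kb and 4.31 over 45 pairs beyond. Its neighbours on either side did not share it. REV122, 5.56 kb above, was lower in NPCs, with sums of 463 and 385 reads against 1301 and 577 reads in ES cells (log2 −2.22 ± 0.63, adjusted p = 0.0051). REV120, 4.41 kb below, had a log2 difference of −0.77 ± 0.59 that missed the threshold.

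REV232, at 767 kb, also stood out from its neighbours. It had 14919 and 55856 reads in NPCs and 1433 and 651 reads in ES cells (log2 3.62 ± 0.35, edgeR adjusted p = 3.69e-08), and 39 of its 95 tested pairs were called higher in NPCs. The fragments on either side, FOR231 and FOR233, each within 2.31 kb, were both lower in NPCs, by log2 differences of −0.93 ± 0.32 and −1.43 ± 0.35. FOR362, at 1120 kb, had 12008 and 42927 reads in NPCs and 1578 and 489 reads in ES cells (log2 3.35 ± 0.36).

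From 302 to 306 kb, 4 neighbouring fragments were all higher in NPCs. REV078, FOR079, REV080 and FOR081 had log2 differences of 2.40, 2.62, 2.57 and 3.14. These sums share reads, and without the largest pair of each fragment the differences were 1.65, 2.50, 1.43 and 3.05, all still called by edgeR. FOR081 alone had 281117 and 618023 reads in NPCs and 31690 and 10428 reads in ES cells (edgeR adjusted p = 6.69e-06). With REV080 it formed the most frequent pair of the NPC libraries, 122435 and 250116 reads, or 5.28% and 4.36% of the region's reads. REV089, at 329 kb, rose by a log2 difference of 2.58 ± 0.36, or 1.76 without its largest pair, which joins it with FOR081, while FOR090 above it had −0.09 ± 0.31. All of these fragments lie in the 300 to 360 kb stretch of the windows that were higher in NPCs.

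FOR140, at 473 kb and so at the lower end of the block, fell most. Its sums were 1972 and 3756 reads in NPCs and 9480 and 5550 reads in ES cells, a log2 difference of −2.75 ± 0.33 (edgeR adjusted p = 1.12e-06). Of its 97 tested pairs 33 were called higher in ES cells and none higher in NPCs, and the median log2 differences at the 3 ranges of distance were −2.61, −2.52 and −2.70. REV141, 5.05 kb above, was higher in NPCs (log2 1.56 ± 0.31). FOR175, at 575 kb, had 5275 and 7439 reads in NPCs and 12117 and 6974 reads in ES cells (log2 −1.86 ± 0.31), between REV174 and REV176, which were higher in NPCs by 1.70 and 1.57. The other named fragments lower in NPCs, FOR265, FOR331, REV306, FOR321 and REV219, had log2 differences from −2.49 to −1.51. FOR265 lost its call without ES replicate 2 (adjusted p = 0.0546).

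Along the region, log2 differences of adjacent fragments correlated at r = 0.163 over 260 neighbouring positions, as a description. Both neighbours were called in the same direction at 47 of them and in opposite directions at 26. When the pair test was given each fragment's own shift as an offset, no pair passed in edgeR (0 of 9934), though 424 favoured NPCs and 976 favoured ES cells at an unadjusted p under 0.05. The offset also moved the median log2 difference of the region's tested pairs to −0.41, from 0.14 without it. The offset is estimated from the same reads, and the cause of the fragment-wide shifts was not tested. Without ES replicate 1, 68 fragments were called as raised in NPCs and 23 as lowered, and without ES replicate 2, 57 and 12.

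**Figure D4:**
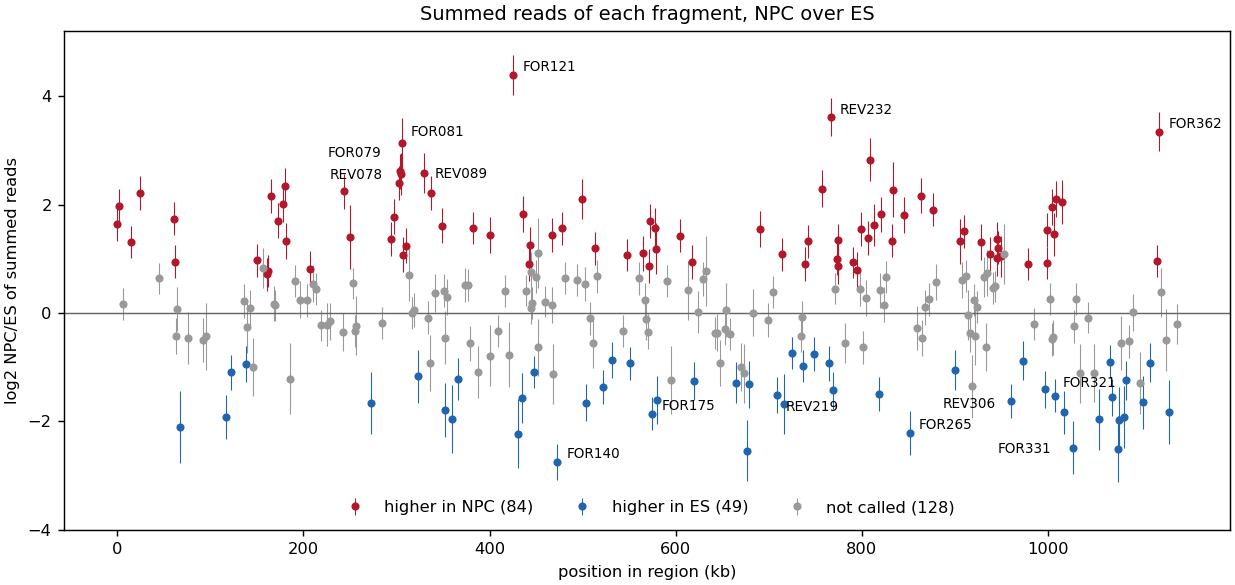
Log2 difference NPC over ES of reads summed per fragment, with its standard error, against position in the region in kb. Red points mark the 84 fragments higher in NPCs, blue points the 49 higher in ES cells and grey points the rest, and FOR121 at 425 kb stands alone above 4 while fragments next to it lie below 0.

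Contacts above expectation were then sorted by cell type. A pair counted as NPC-specific when its residual was at least 1 in both NPC libraries and edgeR called it higher in NPCs, as ES-specific by the same rule for ES cells, and as constitutive when it reached 1 in all 4 libraries and was tested and not called. The region held 213 NPC-specific pairs (1.25% of its pairs), 19 ES-specific pairs (0.112%) and 157 constitutive pairs (0.922%). Over all regions the shares were 1.20%, 0.154% and 1.15%. The cutoff of 1 was the same for every library, although residuals had an SD of 1.35 and 1.71 in NPCs and 0.920 and 0.914 in ES cells. Relative to that spread the cutoff was easier to reach in NPCs, so the class sizes of the cell types are not on equal terms. The class does not mean absence from the other cell type. Of the NPC-specific pairs 170 were below 1 in both ES libraries, and 17 were at 1 or above in both.

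NPC-specific pairs reached across the region, with a median distance of 199 kb and 41 of them at 500 kb or more. No ES-specific pair lay that far, and their median distance was 125 kb. Beyond the pairs named above, FOR046-REV248 joined 180 kb with 807 kb and had 1951 and 5359 reads in NPCs and 164 and 216 reads in ES cells (log2 2.99 ± 0.60, edgeR adjusted p = 0.0346). It was above expectation in ES cells as well, by 2.73 and 3.88, against 5.05 and 5.10 in NPCs. FOR282-REV003, FOR335-REV039 and FOR333-REV012 spanned 902, 878 and 969 kb and had between 174 and 1201 reads in NPC libraries, against 2 to 20 reads in ES libraries. None of the 3, 6 and 2 tested pairs around them that share neither fragment was called. The same held for the 29 tested pairs around FOR046-REV248. FOR081, FOR079 and FOR270 took part in 16, 15 and 15 of the NPC-specific pairs.

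Among ES-specific pairs, FOR076-REV214 joined 297 kb with 683 kb, with 54 and 14 reads in NPCs and 463 and 176 reads in ES cells (log2 −3.91 ± 0.91, adjusted p = 0.0440 by edgeR). FOR282-REV141 had 13 and 82 reads in NPCs and 817 and 110 reads in ES cells, and FOR247-REV153 had 123 and 150 reads in NPCs and 730 and 2489 reads in ES cells. In both of these pairs the scaled ES values differed several-fold from each other but lay above both NPC values. FOR140-REV226, which joins 473 kb with 737 kb, is ES-specific by its reads and not by its residuals. It had 47 and 55 reads in NPCs and 157 and 112 reads in ES cells, yet its residuals were higher in NPCs, 2.53 and 2.67 against 1.55 and 1.53 in ES cells. All 18 pairs around it that share neither fragment had residuals of at least 1 in both NPC libraries, against 17 and 16 of them in the ES libraries.

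Several constitutive contacts had a fragment near an end of the block. FOR138-REV241, which joins 467 kb with 795 kb, had 12657 and 12931 reads in NPCs and 1287 and 1861 reads in ES cells. Its residuals were 6.82 and 5.96 in NPCs and 5.58 and 6.17 in ES cells, and its log2 difference of 1.95 ± 0.68 did not pass (edgeR adjusted p = 0.107). FOR147-REV241, from 504 kb to the same REV241, had 3476 and 2097 reads in NPCs and 3334 and 6119 reads in ES cells. Both stood alone in their surroundings. Pairs around FOR138-REV241 that share neither fragment had mean residuals of 0.40 and 0.07 in NPCs and 0.54 and 0.37 in ES cells. Those around FOR147-REV241 had 0.04 and 0.23 in NPCs and 0.55 and 0.39 in ES cells. FOR225, at 736 kb, took part in 10 constitutive pairs, more than any other fragment. Elsewhere, FOR105-REV003, FOR365-REV248 and FOR114-REV037 had residuals between 3.68 and 6.20 in the 4 libraries, over 367, 320 and 240 kb.

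In the authors' deposited table, the median interaction score of the NPC-specific pairs was 1.71 and 1.64 in the NPC libraries, against 0.43 and 0.43 in the ES libraries. The ES-specific pairs had medians of 0.25 and 0.59 in NPCs and 2.55 and 1.90 in ES cells, and the constitutive pairs 1.70 and 1.81 in NPCs and 1.85 and 1.90 in ES cells. These scores come from the same reads and are no independent measurement. The class counts rest on single libraries. Without ES replicate 1 there were 38 NPC-specific, 1 ES-specific and 258 constitutive pairs, without ES replicate 2 there were 7, 1 and 282, without NPC replicate 1 the first class held 1141 and the second 110 pairs, and without NPC replicate 2 the first held 417.

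The decline of contact counts with distance was steeper in both NPC libraries than in both ES libraries, in a comparison too small to reach significance. Between 10 kb and 1000 kb, the log10 of the scaled count changed with the log10 of distance at a slope of −0.865 and −0.876 in the NPC libraries and −0.728 and −0.729 in the ES libraries. The means were −0.870 ± 0.0076 in NPCs and −0.729 ± 0.00083 in ES cells (SD, n = 2 each), and their difference of −0.142 had p = 0.33 in a two-sided exact permutation test, the smallest p that 2 against 2 libraries allow. In the other large regions the difference ran from −0.106 to 0.120. Leaving out pairs with 0 reads cut it to −0.0356, and unscaled counts gave −0.264.

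Distant pairs were emptier in NPCs, and near pairs held more of the reads. Pairs more than 500 kb apart had no read in 31.0% and 38.1% of cases in NPCs, against 14.8% and 19.4% in ES cells. Pairs under 10 kb took 42.3% and 43.2% of the region's reads in NPCs, against 37.5% and 23.3% in ES cells. ES replicate 2 stood lowest, and ES replicate 1 lay closer to the NPC libraries than to it. Pairs called higher in NPCs made up 12.5% of tested pairs under 10 kb and 4.13% beyond 500 kb, and pairs called higher in ES cells made up 1.60% and 0.905%.

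**Figure D5:**
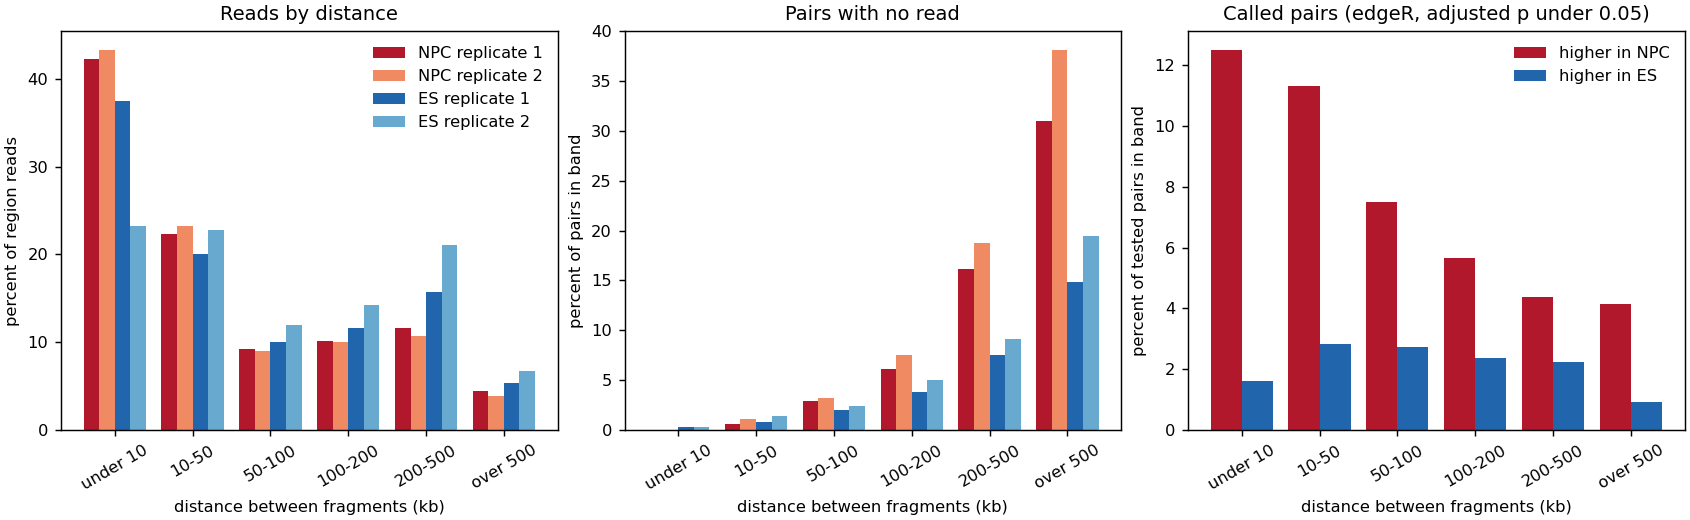
Percent of the region's reads (left), percent of pairs without a read (middle) and percent of tested pairs called by edgeR (right), in 6 ranges of distance between fragments in kb. In the left and middle panels the 4 bars of a range are the 2 NPC libraries (red) and the 2 ES libraries (blue), and beyond 500 kb the NPC libraries lack reads in 31.0% and 38.1% of pairs, against 14.8% and 19.4% in the ES libraries.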

How the data were processed

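The 5C libraries, 2 of NPCs and 2 of ES cells, were grouped as labelled. Whether the libraries of a cell type stem from different cultures is not said, and each p-value is therefore set against a spread that could be technical alone. The authors deposited raw read counts per fragment pair, whole numbers that are not normalized. They also deposited a ratio of these counts to a predicted signal and an interaction score, from a model that the sources used here do not describe. The deposited table gives the distance between the fragments of a pair, per the file headers. Bowtie is named per the submitters' processing notes, and the build behind the 5C distances is not given in the sources that were used. Left unused were 12 per-sample columns.

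Positions were rebuilt from the distances by least squares, with a largest misfit of 0.542 bp. Pairs and fragment sums of all regions were tested in R 4.3.3 with edgeR 4.0.16 (quasi-likelihood F-test), with cell type as the single term, TMM normalization, a mean of at least 10 reads and Benjamini-Hochberg adjustment over all features, at a threshold of 0.05. To obtain residuals, a lowess fit on log10 distance with a span of 0.3 and then the median of each primer were subtracted from log2(count + 1), repeated for 5 rounds in each region and library. Windows of 60 kb with at least 4 pairs and boundary contrasts with at least 20 pairs per set were tested with limma 3.58.1. Scaled counts were divided by relative TMM library sizes of 1.05 and 1.99 in NPCs and 0.847 and 0.567 in ES cells. With 1 library left out, the lone library of its type was assumed to vary like the others. The pair and fragment tests were tried on simulated counts with known changes. The window and boundary tests were tried on simulated independent normal values with the same spread in every library, unlike the data.

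Named were the 6 called pairs per direction with the lowest p, up to 6 called fragments per direction by p plus the 4 with most called pairs, every called window, the extreme boundary positions, and per class the 5 pairs of at least 50 kb with the highest lowest residual. The region, lists and rules were chosen with earlier results of these data known. Alternatives were other scalings, filters and tools, other window and flank sizes, the replicate block and the removal of each library. Contacts of gene fragments and ChIP peaks along the region were not analysed here, since the fragments could not be placed on a genome.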

Additional observations from a re-analysis of the deposited data

How the results depend on the processing

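Counts of called pairs depended on the processing more than named directions did. Pairs higher in NPCs and in ES cells numbered 303 and 228 with library totals, 1394 and 517 with no count filter, 670 and 452 with a mean of at least 50 reads, 1225 and 565 by DESeq2, 955 and 450 by limma, and 0 and 0 with each fragment's shift as an offset. With 1 library left out they ranged from 9 to 2692 and from 1 to 2476. The named pairs kept their direction in every alternative run that gave a value, although the filter of 50 reads removed 2 of the 12 and the fragment offset left between 1.75% and 106% of their log2 difference. The 14 named fragments kept theirs. Fragment counts ranged from 57 to 103 and from 12 to 66 with 1 library left out.

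Windows higher and lower in NPCs numbered 35 and 21 with a correction for distance alone, 6 and 1 at 40 kb, 20 and 16 with a pseudocount of 5, 25 and 23 with residuals scaled to equal spread, 33 and 24 by edgeR on summed counts, and 0 to 42 and 0 to 94 with 1 library left out. On the authors' ratio limma called 0 and 0, with 17 and 81 at an unadjusted p under 0.05. Summed counts reversed the windows of 300 to 360 kb (0.21) and 360 to 420 kb (0.13) with 480 to 540 kb. Stronger and weaker boundary positions numbered 25 and 35 with a correction for distance alone, 43 and 5 on the authors' ratio, 33 and 17 with equal spread, and 25 to 40 and 9 to 34 with 1 library left out. At 650 kb the difference reversed to −0.042 with a flank of 100 kb, without a call, and was called with equal spread (0.34) and on the authors' ratio (0.33).

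The slope difference was −0.178 from 20 to 500 kb, −0.0356 without pairs at 0 reads, −0.264 unscaled, and −0.147 to −0.137 with 1 library left out. A residual of at least 1.5 left 120 NPC-specific, 8 ES-specific and 39 constitutive pairs, and DESeq2 calls gave 376 NPC-specific and 51 ES-specific. With 1 library left out the classes held 7 to 1141, 1 to 110 and 127 to 282 pairs.

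The labels do not say whether libraries of the same replicate number were made or sequenced together. Their deviations from the cell type means correlated at −0.13 over all tested pairs, which does not settle it. With the replicate number as a block, edgeR called 748 and 333 pairs and 77 and 47 fragments, and limma 37 and 29 boundary positions and 0 and 0 windows, with 31 and 62 windows at an unadjusted p under 0.05. Crossed numbers, an alternative chosen after seeing the data, gave 906 and 307 pairs, 92 and 58 fragments, 38 and 26 positions and 0 and 0 windows, with 31 and 62 windows at an unadjusted p under 0.05. The fragment offset, the authors' ratio and the equal spread were also chosen after seeing the data. Depth limits long distances most: beyond 500 kb the median pair had 3 and 2 reads in NPCs and 5 and 3 reads in ES cells. The causes of these shifts were not tested.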
